A study of Mus musculus with 18 samples.

Results

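The clustered protocadherins are 57 of the 31053 mouse genes counted in single cells of E8.5 mouse embryos. They were taken by symbol alone, as every gene named Pcdha, Pcdhb, Pcdhga, Pcdhgb or Pcdhgc, which gave 14 Pcdha, 22 Pcdhb and 21 Pcdhg genes. Transcripts were read near their 3′ ends and counted by unique molecular identifier (UMI). The study asked what single DNA methyltransferases do in early organogenesis: Dnmt1 copies methylation onto replicated DNA, and Dnmt3a and Dnmt3b methylate unmethylated DNA. The libraries, all of strain 129S4/SvJae, were 7 of wild type (WT), 4 Dnmt3a KO, 4 Dnmt3b KO and 3 Dnmt1 KO, each made from 1 embryo. The 4 Dnmt3b KO libraries were counted as 3 samples because of shared cell barcodes, which are given below. The knockouts were homozygotes from matings of heterozygous parents that carried a mutation in that gene in every cell, and they were genotyped by PCR on the ecto-placental cone. No other allele or agent was given for any group.

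Clustered protocadherins are cell-surface cadherins. Each variable exon of the Pcdha and Pcdhg clusters has its own promoter and is spliced to constant exons that encode a cytoplasmic domain common to the family, whereas each Pcdhb gene is a single coding exon with no such domain. In neurons, methylation and CTCF binding at the promoters take part in choosing which alternate isoforms a cell makes, the isoforms pair only with like isoforms on another cell, and this match lets the branches of a neuron tell self from non-self. The C-type genes at the end of the Pcdha and Pcdhg clusters (Pcdhac1, Pcdhac2, Pcdhgc3, Pcdhgc4 and Pcdhgc5) are not subject to this choice in the same way.

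After filtering, 109962 cells were kept, of which 34421 were WT, 34004 Dnmt3a KO, 34469 Dnmt3b KO and 7068 Dnmt1 KO. Kept cells ranged from 1366 to 12716 per library and UMIs from 36516346 to 234638944, so that 3 counts, used here as the limit that a count of 0 allows, amounted to 0.0107 to 0.0822 CPM in a sample (CPM, the UMIs of a gene scaled to a library total of 1000000). Dnmt3b KO 1 and Dnmt3b KO 2 shared 12249 cell barcodes (86.5% and 79.3% of the respective library), against at most 133 in any other pair, and were summed as 1 sample, which left 17 samples and gave the lowest of these limits. Cell and UMI totals include both libraries, so a cell with a shared barcode counts in each. Of the targeted genes, Dnmt1 was lower in Dnmt1 KO (15.2 ± 0.392 against 104 ± 10.8 CPM in WT, mean ± SD) and Dnmt3a in Dnmt3a KO (9.34 ± 1.86 against 29.8 ± 3.88 CPM). Dnmt3b transcripts were not lower in the libraries labelled Dnmt3b KO (57.3, 63.5 and 68.4 CPM against 35.4 to 87.2 in WT), of which Dnmt3b KO 11 and Dnmt3b KO 12 had low Dnmt3a instead, at 15.1 and 7.55 CPM. Whether these libraries lack Dnmt3b function could not be checked from transcript levels, and Dnmt3b KO below means libraries with that label. Y-linked transcripts exceeded 10 CPM in 1 of 7 WT, 4 of 4 Dnmt3a KO, 2 of 3 Dnmt3b KO and 3 of 3 Dnmt1 KO samples, so sex and genotype were not balanced. Nothing in the labels said that the embryos of a group came from separate litters, and p-values therefore measure the spread between these embryos only.

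Across all samples the 57 genes held 27611 of 3011164090 UMIs. The Pcdhg genes held 26808 of these (97.1%), Pcdhb 462 (1.67%) and Pcdha 341 (1.24%). Mean levels reached 0.1 CPM for 18 of 21 Pcdhg genes and for 0 Pcdha and 0 Pcdhb genes. Pcdha7, Pcdhb1, Pcdhb10 and Pcdhb13 had no UMI in any sample, which at this depth does not show that they were not transcribed.

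The clusters lie one after another on the plus strand of chromosome 18 (GRCm38/mm10, GENCODE M21). The Pcdha cluster spans 36930184 to 37187661, the Pcdhb cluster 37264938 to 37524479 and the Pcdhg cluster 37661793 to 37841873. All 14 Pcdha and all 21 Pcdhg genes share the last 300 annotated transcript bases with another gene of their family, and 0 of 22 Pcdhb genes do. A read in the constant exons cannot be given to a single Pcdha or Pcdhg gene, and reads assigned to more than 1 gene are dropped in UMI counting. Only 2 Pcdha and 10 Pcdhg genes (Pcdhga1, Pcdhga4, Pcdhgb2, Pcdhga7, Pcdhgb4, Pcdhgb5, Pcdhga9, Pcdhga12, Pcdhgc3 and Pcdhgc4) have an annotated 3′ end of their own, against 21 Pcdhb genes. The values below are therefore UMIs assigned to a gene and not transcript amounts, and levels of different genes, which are not scaled by length, depend on how much sequence each gene can call its own. An antisense gene overlaps 4 Pcdha, 1 Pcdhb and 4 Pcdhg genes. The study's methods give default mapping in Cell Ranger, which for such libraries counts only reads in the sense of a gene.

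**Figure D1:**
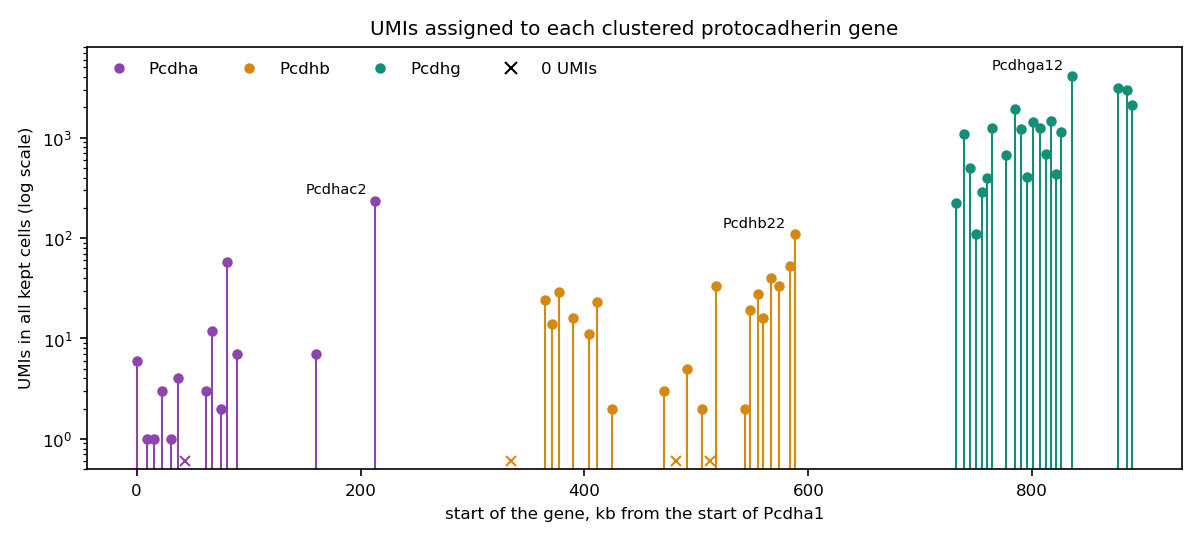
UMIs assigned to each clustered protocadherin in all kept cells (log axis), against the start of the gene in kb from the start of Pcdha1. Genes are coloured by family, and crosses mark genes with 0 UMIs. Most Pcdhg genes sit above the other families, with Pcdhga12 highest at 4077 UMIs. Pcdhac2 and Pcdhb22 lead their families at 236 and 109 UMIs, close to the lowest Pcdhg genes, Pcdhga1 (222 UMIs) and Pcdhgb1 (109 UMIs).

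Within Pcdhg the signal was uneven. Pcdhga12 (ENSMUSG00000102428), the last alternate gene before the C-type genes, had 4077 UMIs and a mean of 1.35 CPM over all samples. The C-type genes came next, with 1.06 CPM for Pcdhgc3 (ENSMUSG00000102918), 0.982 CPM for Pcdhgc4 (ENSMUSG00000023036) and 0.691 CPM for Pcdhgc5 (ENSMUSG00000102543). Pcdhga12, Pcdhgc3 and Pcdhgc4, but not Pcdhgc5, are among the genes with a 3′ end of their own. Pcdhga7 followed at 0.654 CPM and Pcdhga10 at 0.504 CPM, and the lowest genes were Pcdhgb1 at 0.0369 and Pcdhga1 at 0.0769 CPM. All 21 Pcdhg genes had UMIs in all 17 samples.

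In WT embryos Pcdhga12 ranged from 0.985 to 1.82 CPM (median 1.23), Pcdhgc3 from 0.658 to 1.94 (median 1.18) and Pcdhgc4 from 0.832 to 1.34 (median 0.945). Their ranges overlapped, but the genes were read in the same embryos. Within embryos, either Pcdhga12 or Pcdhgc3 could be the higher. Pcdhgc4 was below both except in WT 5, where it was above Pcdhga12 (1.34 against 1.23 CPM), and WT 7, where it was above Pcdhgc3 (0.945 against 0.658 CPM). The order was not tested. Pcdhgc5, from 0.529 to 0.861 CPM (median 0.712), overlapped the lower end of Pcdhgc3 and Pcdhgc4 but lay below every WT value of Pcdhga12. Within each WT embryo it was below Pcdhgc3 and Pcdhgc4 too.

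Pcdhac2 and 1 of the alternate genes led the Pcdha family. Pcdhac2 (ENSMUSG00000102697), the second C-type gene of the cluster, had 236 UMIs and was seen in all 17 samples. Its WT levels ran from 0.0274 to 0.151 CPM (median 0.0732), with 0.144, 0.038 and 0.188 CPM in Dnmt1 KO, 0.0634, 0.0594, 0.0414 and 0.0511 CPM in Dnmt3a KO and 0.075, 0.0835 and 0.103 CPM in Dnmt3b KO. Dnmt3a KO embryos lay in the lower part of the WT range, and the Dnmt1 KO embryos ran from near its bottom to above its top. The symbol Pcdha11 stood for 2 genes in the files, of which ENSMUSG00000102206 had 58 UMIs and ENSMUSG00000007440 had 2. Pcdha9 had 12 UMIs and Pcdhac1, the other C-type gene, 7.

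The Pcdhb genes were read from single exons with little shared sequence, and their signal was sparse. Pcdhb22 (ENSMUSG00000073591), the last gene of the cluster, had 109 of the 462 Pcdhb UMIs, followed by Pcdhb21 with 53, Pcdhb19 with 40, Pcdhb14 and Pcdhb20 with 33 each and Pcdhb4 with 29. Another 7 genes had at most 3 UMIs in total. Pcdhb21 ranged from 0.0119 to 0.0511 CPM in Dnmt3a KO, against 0 to 0.0421 in WT, 0.00715 to 0.0243 in Dnmt3b KO and 0 to 0.0125 in Dnmt1 KO. The highest level of Pcdhb19, Pcdhb14, Pcdhb4 or Pcdhb20 in any sample was 0.0487 CPM, for Pcdhb14 in Dnmt3b KO 12, and all 4 genes were at 0 in at least 4 samples. Of the 28 UMIs of Pcdhb17, 19 came from Dnmt3a KO embryos, 13 of them from Dnmt3a KO 14, where the group had 27.4% of all UMIs counted. Of the 11 UMIs of Pcdhb6, 6 came from Dnmt1 KO embryos, which had 10.5% of all UMIs counted. These genes were singled out after their values were seen.

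Summed over the family, Pcdhg levels overlapped between all groups. They were 6.78 to 13.2 CPM in WT (median 9.01), 8.28, 5.21 and 9.61 CPM in Dnmt1 KO, 8.16, 8.34, 8.67 and 12.8 CPM in Dnmt3a KO, and 8.87, 5.73 and 10.7 CPM in Dnmt3b KO. The group means, 9.39 ± 2.16 (SD, n = 7), 7.7 ± 2.26 (n = 3), 9.49 ± 2.21 (n = 4) and 8.44 ± 2.53 (n = 3), differed by less than the spread within the groups. Without erythroid cells, ExE ectoderm and ExE endoderm, 3 classes with little Pcdhg, the order of Dnmt1 KO and WT turned, at 13.5 against 12.7 CPM.

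Summed Pcdhb levels were 0.0787 to 0.199 CPM in WT (median 0.133), 0.0862, 0.0531 and 0.0876 CPM in Dnmt1 KO, 0.161, 0.172, 0.244 and 0.371 CPM in Dnmt3a KO, and 0.0572, 0.0439 and 0.323 CPM in Dnmt3b KO. The Dnmt3a KO embryos began inside the WT range and ran past it (mean 0.237 ± 0.0964 against 0.126 ± 0.0422 CPM). Dnmt3b KO 12, the only other sample above the WT range, was also the embryo with 7.55 CPM of Dnmt3a and the only library counted with Cell Ranger 5.0.0; the part of either in its level was not tested. Dnmt1 KO held 23 of the 462 Pcdhb UMIs (4.98%, against 10.5% of all UMIs counted), from 7 of the 22 genes, and WT held 158 from 18 genes.

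Summed Pcdha levels were 0.0274 to 0.187 CPM in WT (median 0.0957), 0.278, 0.144 and 0.288 CPM in Dnmt1 KO, 0.0781, 0.113, 0.069 and 0.0895 CPM in Dnmt3a KO, and 0.1, 0.11 and 0.134 CPM in Dnmt3b KO. Of the Dnmt1 KO embryos 2 were above every other sample and 1 lay inside the WT range. A sum over members is given here without a test.

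**Figure D2:**
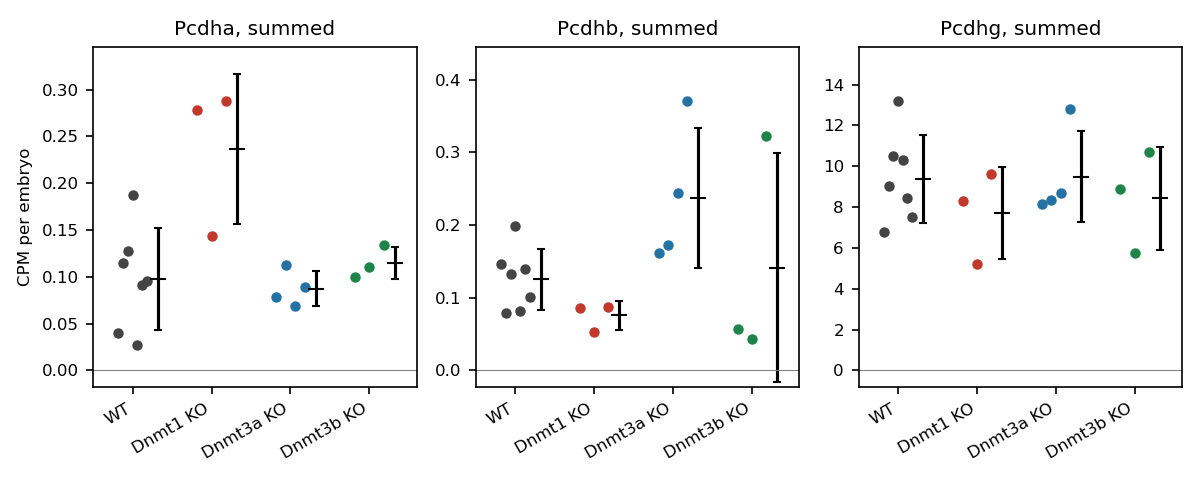
Summed level of the Pcdha, Pcdhb and Pcdhg genes in CPM, with 1 point per embryo and bars for the mean and SD of each group. The Pcdhg groups overlap, 2 of 3 Dnmt1 KO embryos have the highest Pcdha levels (0.278 and 0.288 CPM), and the highest Pcdhb level is 0.371 CPM in a Dnmt3a KO embryo.

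The Pcdha sum was then split into the 12 alternate genes and the 2 C-type genes, a split made after these values had been seen. The alternate genes had 98 UMIs in all, and 36 of them came from Dnmt1 KO (36.7%, against 10.5% of all UMIs counted). Their summed level was 0.134, 0.106 and 0.1 CPM in the 3 Dnmt1 KO embryos (14, 14 and 8 UMIs), 0 to 0.0242 CPM in WT (median 0.0192), 0.0146 to 0.0475 CPM in Dnmt3a KO and 0.0214 to 0.0304 CPM in Dnmt3b KO. All 3 Dnmt1 KO embryos lay above all 14 other samples. UMIs were seen from 10 of the 12 alternate genes in Dnmt1 KO and from 4 in WT, although WT had 39.8% of all UMIs counted.

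The pattern did not rest on Pcdha11 (ENSMUSG00000102206) alone. Without it, the other 11 alternate genes had 40 UMIs, of which 23 were in Dnmt1 KO (0.0958, 0.0531 and 0.0751 CPM) and 5 in WT (0 to 0.012 CPM). Of the 8 in Dnmt3b KO, the embryo with the most reached 0.0264 CPM, and the 4 in Dnmt3a KO were spread over the embryos at 0.00426 to 0.00594 CPM. The C-type genes did not separate in this way over the whole embryo. Their sum was 0.144, 0.038 and 0.188 CPM in Dnmt1 KO (mean 0.123) and 0.0274 to 0.163 CPM in WT (mean 0.0822), which overlapped. Of the 104 C-type UMIs of WT, 37 were of Pcdhac2 in allantois, a class with 2.72% of WT and 0.0707% of Dnmt1 KO cells. The part of this in the C-type values was not tested. Counts are too small for any alternate Pcdha gene to enter the test across all genes, and in that set each Dnmt1 KO embryo rests on 14 UMIs or fewer.

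The alternate Pcdha UMIs of Dnmt1 KO came from several kinds of cell. The cells whose cluster matched no class held 17 of them (0.194 CPM, 95% exact Poisson interval 0.113 to 0.31), against 4 in the unnamed cells of WT (0.033 CPM, 0.00899 to 0.0845). ExE mesoderm, the mesoderm of the extra-embryonic membranes, held 6 (0.143 CPM, 0.0525 to 0.312), against 0 in WT, for which the interval ended at 0.069 CPM. ExE ectoderm, the trophoblast lineage, held another 6 (0.0996 CPM). Intervals cover counting error only.

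Cell classes were named from marker genes, and the level of the Pcdhg family ordered them strongly in WT. Summed Pcdhg was highest in notochord (21.2 to 42.4 CPM, median 28.8, 4 embryos), endothelium (16.3 to 33.6, median 21.8), pharyngeal mesoderm (15.4 to 22.4, median 19.6) and somitic mesoderm (11.9 to 25.2, median 17). The ranges of these neighbours overlapped, and their order within single embryos is not given. Gut (7.3 to 15, median 11.3), forebrain and midbrain (median 10.3), ExE mesoderm (6.01 to 9.98, median 8.22) and surface ectoderm (5.49 to 8.75, median 6.59) were lower.

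The bottom of the order was set apart. Summed Pcdhg in WT was 0.382 CPM at the median in ExE endoderm, the absorptive layer of the yolk sac, and 0.315 CPM in erythroid cells, where the highest embryo reached 0.636 CPM. No WT embryo of the 4 leading classes overlapped these. Erythroid cells were assumed here, without a test, to lack these genes. The part of free RNA in their level, or in that of other classes and groups, was not tested.

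**Figure D3:**
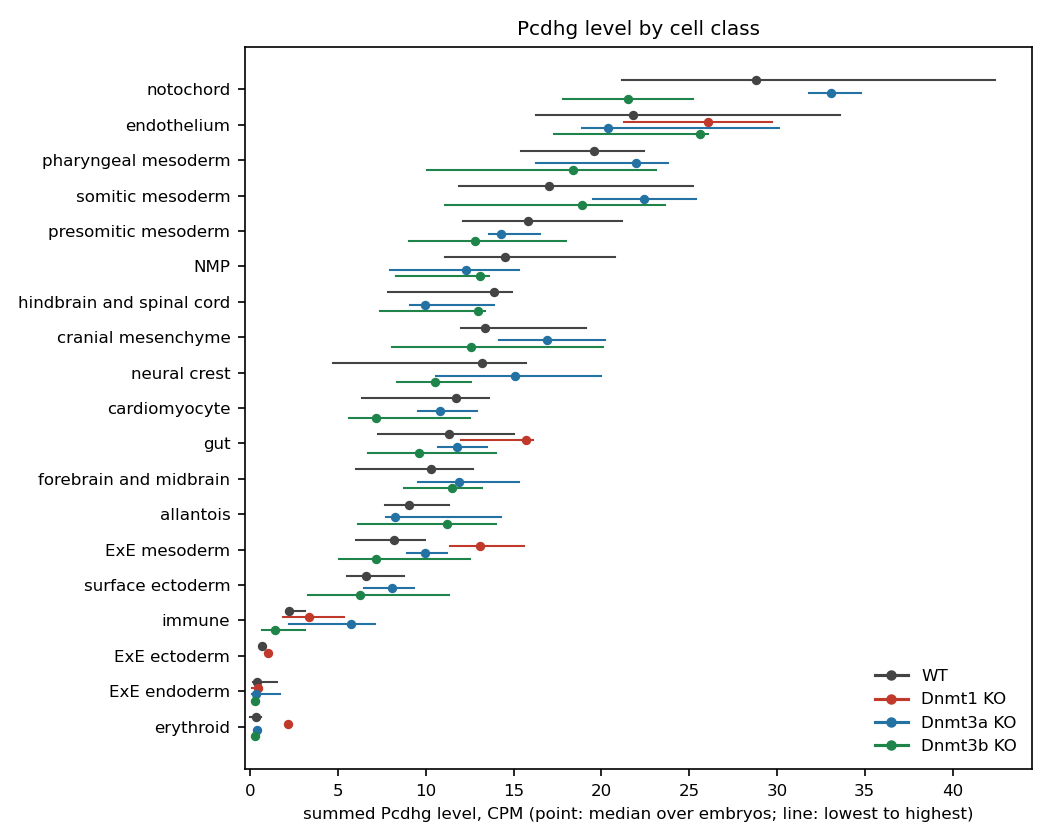
Summed Pcdhg level in CPM in each cell class, coloured by group. Points are medians over embryos with at least 25 cells of the class, and lines run from the lowest to the highest embryo. In WT, notochord and endothelium lead at medians of 28.8 and 21.8 CPM, and erythroid cells and ExE endoderm lie below 1 CPM at the median. The Dnmt1 KO line in ExE mesoderm lies above the WT line.

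The single Pcdhg genes followed a similar order with differences. In WT, Pcdhga12 was highest in endothelium (2.28 to 5.63 CPM, median 3.52) and Pcdhga10 was highest there too (1.2 to 3.32 CPM, median 1.67). Pcdhgc4, the C-type isoform that neurons need for survival, had its highest median in notochord at 4.44 CPM, on 14 UMIs over 4 embryos. The leading gene by UMIs in WT was Pcdhga12 in endothelium (212 UMIs) and cranial mesenchyme (130 UMIs), and Pcdhgc3 in ExE mesoderm (78 UMIs), allantois (63 UMIs) and cardiomyocytes (41 UMIs).

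Pcdhac2 was not spread in this way. In WT it had 37 UMIs in allantois, the outgrowth that forms the umbilical vessels, which pooled to 1.2 CPM (95% exact Poisson interval 0.843 to 1.65). Cardiomyocytes followed at 0.404 CPM (0.194 to 0.743) on 10 UMIs, and erythroid cells and ExE endoderm had 0 UMIs, for which the intervals ended at 0.0232 and 0.0202 CPM. In allantois the level ran from 0 to 1.74 CPM across 6 WT embryos (median 0.854), so the spread between embryos was wide.

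Pcdhb levels by class could be read only from pooled embryos. In WT they were 0.524 CPM in endothelium (0.345 to 0.763), 0.516 in somitic mesoderm and 0.45 in gut. In Dnmt3a KO they were 1.02 CPM in endothelium (0.713 to 1.41) and 0.993 in pharyngeal mesoderm (0.67 to 1.42), the latter against 0.281 in WT (0.14 to 0.503). The embryos themselves overlapped, at 0 to 1.58 CPM for pharyngeal mesoderm in Dnmt3a KO and 0 to 0.712 CPM in WT, and at 0.831 to 1.4 CPM for endothelium in Dnmt3a KO and 0.13 to 1.67 CPM in WT.

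In single cells thinned to 5000 UMIs, 63 of 85098 cells had a Pcdhb UMI (0.074%, 95% Clopper-Pearson interval 0.0569 to 0.0947), and 24864 shallower cells were left out. The share was 0.0706 ± 0.0552% in WT, 0.108 ± 0.0879% in Dnmt3a KO, 0.0747 ± 0.0667% in Dnmt3b KO and 0.0373 ± 0.0373% in Dnmt1 KO (mean ± SD over samples), which did not separate the groups. Single libraries decided these shares: that of Dnmt3a KO was 0.0655% without Dnmt3a KO 14, that of Dnmt3b KO 0.0362% without Dnmt3b KO 12, and that of Dnmt1 KO 0.0185% without Dnmt1 KO 1 and 0.0559% without Dnmt1 KO 3. Erythroid cells, with a median library depth of 35790 UMIs against 31470 for all cells, had a Pcdhb UMI in 0 of 10083 cells, of which 3 cells would be 0.0298% and for which the Clopper-Pearson interval ended at 0.0366%, and a Pcdhg UMI in 0.228% of cells. Endothelium had a Pcdhb UMI in 11 of 3672 cells (0.3%) and a Pcdhg UMI in 9.97%, and all classes together had a Pcdhg UMI in 4.3%. The cell counts, intervals and limits here and in the next paragraph pool cells over libraries and do not cover the spread between embryos. Over samples, the share of cells with a Pcdhb UMI ran from 0 to 0.235%. Cells with a barcode shared by Dnmt3b KO 1 and Dnmt3b KO 2 were counted in both.

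Not a single thinned cell had UMIs of 2 or more Pcdhb genes, which allows a share of up to 0.00353%. Without thinning, 0.385% of the 109962 cells had a Pcdhb UMI and 14 cells had more than 1 Pcdhb gene. Of the 27 cells with exactly 2 Pcdhb UMIs, 9 had them from different genes. How many Pcdhb genes a cell transcribes was not detectable at this depth.

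Over the whole embryo, edgeR's quasi-likelihood test was run across 18760 genes, 22 of which were members: Pcdhac2, Pcdhb22 and 20 Pcdhg genes, all but Pcdhgb1. A gene was called at a Benjamini-Hochberg adjusted p under 0.01 when its log2 fold change was also 1 or more in size. In such sums, fewer cells of a type and less RNA per cell cannot be told apart, and the classes differed. Erythroid cells, ExE ectoderm and ExE endoderm, all low in Pcdhg, made up 38.5% of Dnmt1 KO cells and 27.4% of WT cells. Somitic, neural and similar classes made up 0.891% and 35.7%, and cells of unnamed clusters 35.2% and 14.5%, in the same order. Leaving out erythroid cells, ExE ectoderm and ExE endoderm, as below, does not even out the other classes.

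In Dnmt1 KO against WT, 0 of the 22 members were called, where 8.15% of all genes were called higher and 6.11% lower. At an unadjusted p under 0.05 there were 7, of which 1 was higher and 6 were lower, beside 23.5% and 22.5% of all genes. DESeq2 called 1, Pcdhga3, lower, as it did 6.58% of all genes. The members' median log2 fold change was -0.30 and that of all genes 0.01. Pcdhga3 (ENSMUSG00000104346) ran from 0.0548 to 0.256 CPM in WT (median 0.203) and was 0.0383, 0.0531 and 0.0876 CPM in Dnmt1 KO. Of its Dnmt1 KO embryos, 2 lay below the WT range and 1 in its lower part, and the log2 fold change was -1.63 (SE 0.51, edgeR adjusted p 0.0183). Pcdhga6 (-1.21, SE 0.44, edgeR adjusted p 0.0377) and Pcdhgb5 (-0.80, SE 0.27, edgeR adjusted p 0.0296) also stood at an adjusted p under 0.05, as 36.9% of all genes did.

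Pcdhga11 went the other way. It was 0.217 to 0.58 CPM in WT (median 0.356) and 0.603, 0.402 and 0.801 CPM in Dnmt1 KO, with a log2 fold change of 0.75 (SE 0.34, edgeR adjusted p 0.0924). When erythroid cells, ExE ectoderm and ExE endoderm were left out, 23 members could be tested and Pcdhga11 was called higher (1.18, edgeR adjusted p 0.00544, where 8.18% of genes were called higher). The log2 fold changes of Pcdhga3, Pcdhga6 and Pcdhgb5 were then -1.24, -0.74 and -0.37 (edgeR adjusted p 0.0584, 0.142 and 0.223). With Y-linked level as a covariate, that of Pcdhga3 was -1.56 and that of Pcdhgb5 -0.85, close to the values without it, at edgeR adjusted p of 0.084 and 0.102, and that of Pcdhga6 was -0.44 (edgeR adjusted p 0.543).

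In Dnmt3a KO against WT, 0 of 22 members were called, where 0.213% of genes were called higher and 0.0107% lower. The only member at an unadjusted p under 0.05 was Pcdhb22, which was higher, as were 5.63% of all genes at that threshold, and DESeq2 called 0. Pcdhb22 was 0.0266, 0.00605, 0.0274, 0.0421, 0, 0.0336 and 0.00563 CPM in the WT embryos and 0.0293, 0.0832, 0.0506 and 0.0938 CPM in Dnmt3a KO. Dnmt3a KO embryos lay above WT except for 1 that fell inside the WT range, and the log2 fold change of 1.42 (SE 0.60) did not pass (edgeR adjusted p 0.455). With Y-linked level as a covariate it was 4.10 (edgeR adjusted p 0.0229), a fit in which 1 WT embryo alone carries high Y-linked counts. The rise was not particular to Dnmt3a KO. In the same fit Pcdhb22 in Dnmt1 KO against WT stood at 2.9 (edgeR adjusted p 0.0426), against 0.2 (edgeR adjusted p 0.88) without the covariate. Dnmt3b KO had 0.0143, 0.00439 and 0.0913 CPM, with the highest again in Dnmt3b KO 12, and Dnmt1 KO had 0.0479, 0.0152 and 0.0125 CPM.

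In the libraries labelled Dnmt3b KO, in which Dnmt3b transcripts were not lower, 0 of 22 members were called against WT, where 1.77% of genes were called higher and 0.0267% lower. At an unadjusted p under 0.05, 2 were lower, Pcdhgb6 (-0.77) and Pcdhgb7 (-0.84), beside 7.27% of all genes, and DESeq2 called 0. The members' median log2 fold change was 0.05 in Dnmt3a KO and -0.16 in Dnmt3b KO. The 95% interval lay within 1 log2 unit of no change for 15 of the 22 in Dnmt3a KO, 12 in Dnmt3b KO and 6 in Dnmt1 KO, so the interval left out a 2-fold change for most members in the first 2 groups and for few in Dnmt1 KO.

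The mutants were also compared with each other. Dnmt1 KO against Dnmt3a KO called 0 of 22 members, where 6.87% of genes were called higher and 6.46% lower, but Pcdhga11 (1.08), Pcdhga3 (-1.51), Pcdhgb2 (-1.08) and Pcdhgb5 (-0.96) stood at an edgeR adjusted p of at most 0.05, as 35.1% of all genes did. Dnmt1 KO against Dnmt3b KO called 0 (background 3.7% higher and 4.96% lower), as did Dnmt3b KO against Dnmt3a KO (0.203% and 0.0107%). DESeq2 called 0 members in these 3 comparisons.

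**Figure D4:**
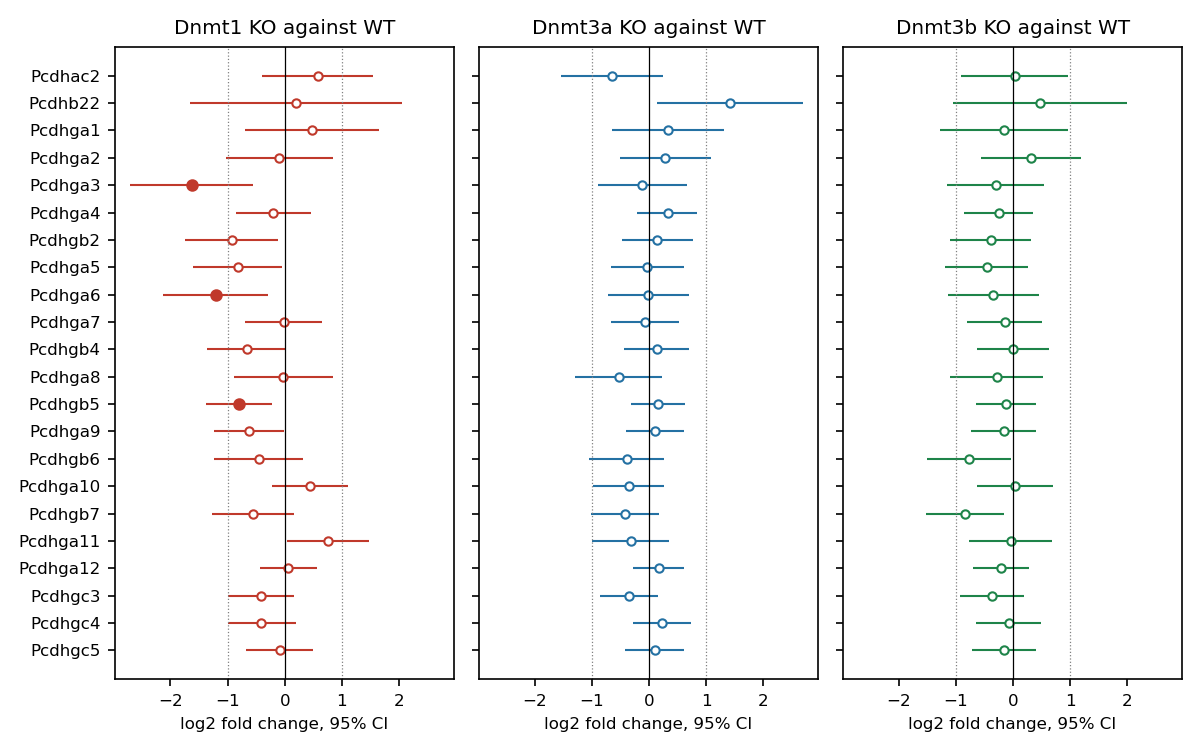
Log2 fold change of the 22 tested members in each KO group against WT over the whole embryo, with 95% intervals from edgeR. Pcdhga3 in Dnmt1 KO is lowest at -1.63, Pcdhga11 in Dnmt1 KO lies above 0 at 0.75, and Pcdhb22 in Dnmt3a KO is at 1.42 with a wide interval.

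Within cell classes, 5 classes had at least 3 Dnmt1 KO and 3 WT embryos with 25 cells or more: ExE mesoderm, endothelium, gut, ExE endoderm and immune cells. No Pcdha or Pcdhb gene passed the count filter in any class. That filter can be passed through the counts of a single group, so a gene could enter through its Dnmt1 KO levels alone. Of the Pcdhg genes, 8 were tested in ExE mesoderm, 11 in endothelium and 5 in gut, and 0 in the others. Of these 24 gene and class pairs, edgeR called 2 higher in Dnmt1 KO and 0 lower, where 4.29% of all pairs were called higher and 3.63% lower. At an unadjusted p under 0.05, 6 were higher (20% of all pairs were), the same number had an adjusted p under 0.05 (28.7% of all pairs did), and DESeq2 called 2 higher, Pcdhga11 in ExE mesoderm and Pcdhga10 in endothelium.

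Both edgeR calls were in ExE mesoderm, where 5.89% of genes were called higher and 4.37% lower. Pcdhga11 was 0.354 to 1.09 CPM in WT (median 0.772) and 1.88, 2.26 and 1.37 CPM in Dnmt1 KO, on 29, 27 and 20 UMIs. All 3 Dnmt1 KO embryos lay above all 7 WT embryos, and the log2 fold change was 1.44 (SE 0.40, edgeR adjusted p 0.00812). The share of all genes without such overlap is not given, here or for the other cases without overlap, so these cases cannot be set against it. Pcdhga12 was 0.589 to 1.33 CPM in WT (median 1.14) and 3.05, 2.34 and 1.03 CPM in Dnmt1 KO. Of these, 2 embryos were above the WT range and 1 was inside it, with a log2 fold change of 1.17 (SE 0.34, edgeR adjusted p 0.00936). Neither call withstood leaving out single embryos. That of Pcdhga12 was lost in 13 of 19 such fits. Among them were those without Dnmt1 KO 1 (0.84, edgeR adjusted p 0.108), without Dnmt1 KO 2 (1.11, edgeR adjusted p 0.0358) and without any 1 of the WT embryos (1.06 to 1.23). DESeq2 did not make the call either (1.18, DESeq2 adjusted p 0.0117). That of Pcdhga11 was lost without any 1 of the Dnmt1 KO embryos (1.28 to 1.59, edgeR adjusted p up to 0.0439) and without any WT embryo other than WT 4.

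The other 6 genes tested in ExE mesoderm also had log2 fold changes above 0, with a median of 0.92 over the 8 and 0.02 over all genes. Signs, medians and cases without overlap depend in part on the count filter, which a gene could pass through its Dnmt1 KO levels alone. Pcdhga7 was 0 to 0.378 CPM in WT and 1.04, 0.502 and 1.03 CPM in Dnmt1 KO, with no overlap, at 1.68 (SE 0.51, edgeR adjusted p 0.0139). Pcdhga10, at 0.284 to 0.943 CPM in WT and 1.3, 1.59 and 1.17 CPM in Dnmt1 KO, did not overlap either (1.10, SE 0.38, edgeR adjusted p 0.0265). The C-type genes had smaller values that did not pass, at 0.36 for Pcdhgc3, 0.58 for Pcdhgc4 and 0.74 for Pcdhgc5. Summed Pcdhg in this class was 11.4, 13.1 and 15.6 CPM over the Dnmt1 KO embryos in rising order, all above the WT range of 6.01 to 9.98.

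The ExE mesoderm cells of the 2 groups were not drawn from the same clusters. In Dnmt1 KO, 87.9% of the reference cells of the class lay in a cluster led by Tdo2, Stard8, Nrp1, Ahnak and Peg3, whereas in WT the largest cluster, with 38.8%, was led by Lum, Tdo2, Col3a1, Hsd11b2 and Smoc2. The part of this difference in the Pcdhg values was not tested. With Y-linked level as a covariate, Pcdhga11 stood at 1.15 (edgeR adjusted p 0.16) and Pcdhga12 at 1.66 (edgeR adjusted p 0.0142), so that neither was called, while Pcdhga7 was (3.31, edgeR adjusted p 0.000732).

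In endothelium 0 members were called against WT, where 4.22% of genes were called higher and 4.32% lower, and DESeq2 called 1, Pcdhga10. Pcdhga10 was 1.2 to 3.32 CPM in WT (median 1.67) and 5.27, 6.08 and 2.94 CPM in Dnmt1 KO, on 23, 24 and 9 UMIs. Of the Dnmt1 KO embryos, 2 were above and 1 was inside the WT range, with a log2 fold change of 1.27 (SE 0.36, edgeR adjusted p 0.0114). Pcdhga11 was 0 to 1.21 CPM in WT and 1.6, 1.52 and 2.62 CPM in Dnmt1 KO, which did not overlap (1.57, SE 0.55, edgeR adjusted p 0.0397). The C-type genes were below 0, at -0.43 for Pcdhgc3, -0.07 for Pcdhgc4 and -0.49 for Pcdhgc5, and the median over the 11 genes was 0.24. The largest endothelial cluster was the same in both groups and held 52% of Dnmt1 KO and 48.4% of WT reference cells. In gut, all 5 genes tested had values above 0 (median 0.55) and 0 were called, where 4.49% of genes were called higher and 3.26% lower, with 90.3% of the Dnmt1 KO reference cells in a cluster that was not the main one of WT. The Dnmt1 KO gut samples had 30, 41 and 40 cells, and each of these genes had 0 to 8 UMIs in each of them. At such counts, and after the count filter, the shared sign is not read as a common direction.

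The same fits compared Dnmt1 KO with the other mutants. Against Dnmt3a KO, edgeR called 3 of the 24 pairs higher and 0 lower, where 4.02% and 4.01% of all pairs were called. These were Pcdhga10 in endothelium (1.71, edgeR adjusted p 0.00352) and Pcdhga10 (1.5, edgeR adjusted p 0.00729) and Pcdhga11 (1.87, edgeR adjusted p 0.00274) in ExE mesoderm. Pcdhga10 in endothelium was 1.21 to 1.89 CPM in Dnmt3a KO and 1.26 to 3.32 CPM in Dnmt3b KO. Against Dnmt3b KO 1 pair was called higher, Pcdhga11 in ExE mesoderm (1.78, edgeR adjusted p 0.00758), where 2.45% of all pairs were called higher and 2.67% lower. DESeq2 called 2 pairs higher against Dnmt3a KO, without Pcdhga10 in ExE mesoderm (DESeq2 adjusted p 0.0106), and 1 against Dnmt3b KO. None of these 4 calls withstood leaving out single libraries. The call was lost in 3 of 19 such fits for Pcdhga10 in endothelium (without Dnmt1 KO 1, Dnmt1 KO 2 or Dnmt3a KO 1) and in 6 for Pcdhga10 in ExE mesoderm (without any 1 Dnmt1 KO embryo, Dnmt3a KO 1, Dnmt3a KO 13 or Dnmt3a KO 14). For Pcdhga11 it was lost in 5 against Dnmt3a KO (without Dnmt1 KO 1, Dnmt1 KO 2, Dnmt3a KO 1, Dnmt3a KO 13 or Dnmt3a KO 14) and in 5 against Dnmt3b KO (without any 1 Dnmt1 KO embryo, Dnmt3b KO 11 or Dnmt3b KO 12), with log2 fold changes of 1.33 to 2.56 over the 19 fits of each and edgeR adjusted p of at most 0.0362. A covariate for the combined reference ended all 4 calls (1.08 to 1.56, edgeR adjusted p 0.0133 to 0.0486), and Y-linked level as a covariate ended that of Pcdhga11 against Dnmt3b KO (1.66, edgeR adjusted p 0.016) but not the other 3. In ExE mesoderm, the largest cluster of the class was the one led by Lum in Dnmt3a KO (40.6% of reference cells) and Dnmt3b KO (42%), as in WT, and not the one that held most Dnmt1 KO cells; the part of this in the values was not tested. These comparisons use the same Dnmt1 KO embryos as the one with WT and are not separate evidence for them.

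**Figure D5:**
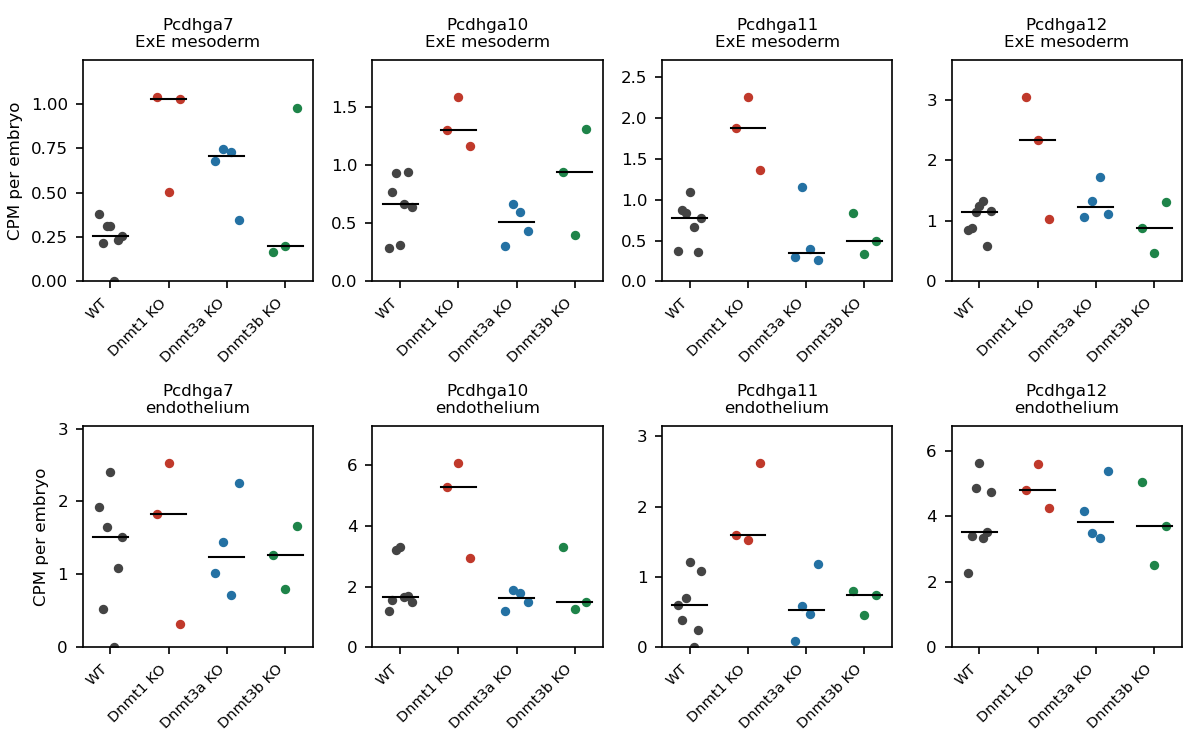
Level of Pcdhg genes in ExE mesoderm and endothelium in CPM, with 1 point per embryo. In ExE mesoderm, Pcdhga11 is 1.37 to 2.26 CPM in Dnmt1 KO and 0.354 to 1.09 CPM in WT, and in endothelium Pcdhga10 is 2.94 to 6.08 CPM in Dnmt1 KO and 1.2 to 3.32 CPM in WT.

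Dnmt3a KO and WT could be compared in 18 classes and 86 pairs, of which edgeR called 0, where 0.093% of all pairs were called higher and 0.0173% lower. At an unadjusted p under 0.05 there were 3 (9.63% of all pairs passed that threshold), namely Pcdhga7 in ExE mesoderm (1.13), Pcdhgc3 in NMP, the neuromesodermal progenitors (-1.05), and Pcdhgc4 in surface ectoderm (0.98, edgeR adjusted p 0.276). Dnmt3b KO and WT could be compared in 16 classes and 83 pairs, of which 0 were called (background 0.633% higher and 0.0329% lower) and 1 had an unadjusted p under 0.05, Pcdhgc3 in pharyngeal mesoderm (-0.64), where 6.68% of all pairs were lower at that threshold. Dnmt3b KO against Dnmt3a KO also gave 0 of 83 (background 0.128% higher and 0.00721% lower), with 2 at an unadjusted p under 0.05 (6.29% of all pairs). DESeq2 called 0 pairs in all 3.

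Of 19 flanking and interposed genes tested over the whole embryo, 1 was called higher and 0 lower in Dnmt1 KO, where 8.15% of all genes were called higher and 6.11% lower. This was Dnd1, an RNA-binding protein of germ cells that lies upstream of the Pcdha cluster. Dnd1 was 0.599 to 1.49 CPM in WT, 6.31, 10.3 and 7.99 CPM in Dnmt1 KO, 1.46, 1.33, 2.06 and 2.76 CPM in Dnmt3a KO and 3.1, 3.76 and 5.17 CPM in Dnmt3b KO. No Dnmt1 KO or Dnmt3b KO embryo overlapped WT, with log2 fold changes of 3.13 (edgeR adjusted p 5.05e-08) and 1.99 (edgeR adjusted p 4.27e-05), while 0.91 in Dnmt3a KO did not pass (edgeR adjusted p 0.0926). Of all genes, 1.77% were called higher in Dnmt3b KO and 0.213% in Dnmt3a KO. Within classes the calls for higher Dnd1 numbered 10 of 16 for Dnmt3b KO, 3 of 5 for Dnmt1 KO and 2 of 16 for Dnmt3a KO. Of all gene and class pairs, 0.633%, 4.29% and 0.093% were called higher in that order. Taf7, a subunit of the general transcription factor TFIID that lies between the Pcdhb and Pcdhg clusters, was 67.2 to 96.6 CPM in WT and 145 to 164 CPM in Dnmt1 KO, a log2 fold change of 0.89 (edgeR adjusted p 1.93e-05), which is under the fold that a call needs. In endothelium of Dnmt1 KO it was called higher against WT (1.22, edgeR adjusted p 1.08e-06).

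Of 12 non-clustered protocadherins tested, 2 were called lower in Dnmt1 KO, where 6.11% of all genes were. The other KO groups had 0 called lower, where 0.0107% (Dnmt3a KO) and 0.0267% (Dnmt3b KO) of all genes were. Pcdh8, a gene of presomitic mesoderm, was 1.77 to 2.79 CPM in WT and 0.383, 0.402 and 0.601 CPM in Dnmt1 KO (-2.17, edgeR adjusted p 2e-05). Pcdh17 was 0.979 to 2.36 CPM in WT and 0.211, 0.372 and 1.06 CPM in Dnmt1 KO (-1.65, edgeR adjusted p 0.00605), and in endothelium it was called lower as well (-3.99). Within classes, Pcdh1 (1.51) was called higher and Pcdh7 (-1.02) and Pcdh11x (-4.06) lower in gut of Dnmt1 KO, and Pcdh19 higher in its ExE mesoderm (1.30). Somitic, neural and similar classes made up 0.891% of Dnmt1 KO cells and 35.7% of WT cells, and the part of this in the Pcdh8 value was not tested.

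Of the 17 promoter and loop factors, which include Ctcf, the cohesin subunits and Smchd1, only the targeted genes Dnmt1 (in Dnmt1 KO) and Dnmt3a (in Dnmt3a KO) were called over the whole embryo against WT, both lower, beside 6.11% of all genes in Dnmt1 KO and 0.0107% in Dnmt3a KO. Within classes of Dnmt1 KO, besides Dnmt1, the cohesin gene Stag2 was called higher in gut (1.09, edgeR adjusted p 0.0011) and Dnmt3b lower in immune cells (-1.27, edgeR adjusted p 0.000133). Over the whole embryo Dnmt3b had the opposite sign in Dnmt1 KO, at 94.3, 114 and 126 CPM against 35.4 to 87.2 CPM in WT (0.93, edgeR adjusted p 0.000531, not called for its size). Of the 6 cytoplasmic partners, 1 was called higher and 0 lower in Dnmt1 KO against WT, beside 8.15% and 6.11% of all genes: Ptk2b, the kinase PYK2 that the shared Pcdha and Pcdhg domain binds, at 1.38 to 2.33 CPM in WT and 5.29, 6.69 and 3.77 CPM in Dnmt1 KO (1.55, edgeR adjusted p 5.67e-05). In Dnmt1 KO it was also called higher in ExE mesoderm (3.07) and gut (1.87). The receptor kinase Ret was called higher in ExE mesoderm of Dnmt1 KO (2.05) but had the opposite sign over the whole embryo, at 0.524 to 1.23 CPM against 1.27 to 2.71 CPM in WT (-1.10, edgeR adjusted p 0.0142, not called). It was called lower there against Dnmt3a KO (-1.77) and Dnmt3b KO (-1.62). Within classes, Fyn, a Src-family kinase, was called lower in immune cells of Dnmt1 KO (-1.38).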

How the data were processed

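Single E8.5 embryos were dissociated, and each droplet library of 3′ transcript ends was made from 1 embryo. The authors aligned and counted reads with Cell Ranger and deposited raw UMI counts per gene and cell barcode, without normalisation; per the file headers, 17 matrices came from Cell Ranger 3.1.0 and 1, Dnmt3b KO 12, from Cell Ranger 5.0.0. In 4 libraries (Dnmt3b KO 11, Dnmt3a KO 1, Dnmt3a KO 13 and WT 1) reads had been aligned to a combined human and mouse reference and in 14 to mm10 alone. Groups came from the labels.

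Barcodes with at least 1500 mouse UMIs were kept (128881 of 162336), with at most 30% mitochondrial and 35% ribosomal protein counts, and doublets were removed with Scrublet at 0.8% per 1000 cells. Up to 1500 cells per library were clustered (2500 variable genes, 50 principal components, 30 neighbours, Leiden resolution 2; scanpy 1.11.5, leidenalg 0.10.2, Python 3.11.15). Of 47 clusters, 37 were named after 19 classes from marker lists. Cells of unnamed clusters made up 14.5% of WT, 35.2% of Dnmt1 KO, 17.2% of Dnmt3a KO and 17.6% of Dnmt3b KO.

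UMIs were summed per embryo, and per embryo and class with at least 25 cells. All 4 groups entered one model per fit in edgeR 4.0.16 (R 4.3.3; filterByExpr, TMM, quasi-likelihood test), with p-values adjusted over all genes of the fit. SE are of the log2 fold change, which is the first group minus the second. CPM are per 1000000 UMIs of the sample. DESeq2 1.42.0 and the other settings tried are described further on. The fitting script was tested on simulated counts.

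The members and gene lists, and the rule for the genes named (the leading genes of each family, the C-type genes and the members called), were chosen with earlier results of these data known. Of the 20 flanking genes listed, 19 were in the files.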

Additional observations from a re-analysis of the deposited data

Results flagged for a closer look

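In 6 of the 34 sets of group values checked, 1 embryo stood far from the rest of its group by Dixon's criterion, which chance gives in about 1 of 20 groups of independent, normally spread values. The sets checked include family sums beside their own members and genes with very few UMIs, so the 6 cannot be set against that rate. Dnmt3a KO 14 stood high for summed Pcdhg, at 12.8 CPM against 8.67 for the next embryo, for Pcdhgc4, at 2.06 CPM against 0.975, and for Pcdhgc5, at 1.44 CPM against 0.6. It also had the highest Pcdhb22 level of any sample, 0.0938 CPM. WT 5, the library with the fewest cells, stood high for Pcdhgc4 at 1.34 CPM against 1.04. Pcdha9 in Dnmt3a KO 13, at 0.0046 CPM where the other 3 embryos had 0, and Pcdhac1 in WT 4, at 0.012 CPM against 0.0048, rest on 1 and 2 UMIs.

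In 4 cases a Pcdhg gene differed between Dnmt1 KO and another KO group in a direct test within a class. These were Pcdhga10 in endothelium (1.71 against Dnmt3a KO), Pcdhga10 in ExE mesoderm (1.5 against Dnmt3a KO) and Pcdhga11 in ExE mesoderm (1.87 against Dnmt3a KO and 1.78 against Dnmt3b KO), as log2 fold changes. Each of these calls was lost when certain single libraries were left out (3, 6, 5 and 5 of 19 fits in that order) and with a covariate for the combined reference (edgeR adjusted p 0.0187, 0.0486, 0.0175 and 0.0133).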

How the results depend on the processing

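None of the 20 log2 fold changes recomputed for single genes changed sign under any setting. They were chosen for an edgeR adjusted p under 0.05 in the main fit, so a change of sign was unlikely from the start. The order of summed Pcdhg in Dnmt1 KO and WT (7.7 against 9.39 CPM) turned under both changes in the weight of the classes given below. Over the whole embryo, the count of members called in Dnmt1 KO against WT went from 0 to 1 with DESeq2 (Pcdhga3), with a covariate for the combined reference (Pcdhga3) and without erythroid cells, ExE ectoderm and ExE endoderm (Pcdhga11), and to 3 at an adjusted p under 0.05 with no fold limit; leaving out single libraries gave 0 to 1, with Pcdhga3 called without WT 5 and Pcdhga6 without Dnmt3b KO 12. For Dnmt1 KO against Dnmt3a KO it went from 0 to 2 with the reference covariate, 2 without those classes and 4 at the looser rule, and single libraries gave 0 to 1. Within classes, the count of 2 in Dnmt1 KO against WT became 0 with at least 50 cells, 1 without the low-count filter (Pcdhga11), 1 with the reference covariate (Pcdhga11), 1 with the Y-linked covariate (Pcdhga7, with both original calls lost) and 6 at the looser rule; single libraries gave 0 to 3. Thinning to the smallest library left no member to test within classes.

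The replicate numbers did not pair the samples: the 13 pairs that share a number had correlations of -0.34 to 0.4 (median -0.02), and 1 of 10 libraries correlated best with its own number. With a replicate block, the 2 calls within classes became 0 (Pcdhga11 in ExE mesoderm 1.47, edgeR adjusted p 0.0282, and Pcdhga12 1.15, edgeR adjusted p 0.047). The 4 calls of Dnmt1 KO against the other mutants were lost too (1.33 to 1.65, edgeR adjusted p 0.0401 to 0.0981). Because the numbers did not pair the samples, this block cannot decide whether the calls hold.

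Without erythroid cells, ExE ectoderm and ExE endoderm, summed Pcdhg was 12.7 CPM in WT, 12.9 in Dnmt3a KO, 11.1 in Dnmt3b KO and 13.5 in Dnmt1 KO; Pcdhb was 0.173 in WT and 0.137 in Dnmt1 KO; and Pcdha was 0.134 in WT, 0.121 in Dnmt3a KO, 0.149 in Dnmt3b KO and 0.357 in Dnmt1 KO. With equal weight to ExE endoderm, ExE mesoderm, endothelium and gut, Pcdhg was 10.8 in WT and 13.5 in Dnmt1 KO, Pcdhb 0.3 in WT, 0.424 in Dnmt3a KO, 0.204 in Dnmt3b KO and 0.0737 in Dnmt1 KO, and Pcdha 0.0393 in WT, 0.0323 in Dnmt3a KO, 0.0304 in Dnmt3b KO and 0.214 in Dnmt1 KO. Without thinning, cells with a Pcdhb UMI were 0.449% in WT, 0.617% in Dnmt3a KO, 0.351% in Dnmt3b KO and 0.327% in Dnmt1 KO, and cells with several Pcdhb genes 0.0125%, 0.0274%, 0.0113% and 0% in that order; at 3000 UMIs the latter was 0.00365% in Dnmt3a KO. Leaving out single libraries moved Pcdhb in Dnmt3b KO between 0.0506 and 0.19 CPM, the lower without Dnmt3b KO 12. Depth limits Pcdha and Pcdhb to sums over embryos.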
